A study of Arabidopsis thaliana with 24 samples.

Results

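Leaf 3 of Arabidopsis thaliana was studied while its cells were still dividing, and its response to mannitol was taken as the difference between 3 mannitol arrays and 3 control arrays, 6 of the 24 arrays of the study. Mannitol leaves came from plants on medium with 25 mM mannitol. Control leaves came from plants on the same medium with 0 mM mannitol. Both were harvested on day 9, at a leaf area of about 0.1 mm2, from wild-type plants of the ecotype Col-0 kept in vitro under 1 light cycle and temperature. Each array carries total RNA pooled from many plants and plates of a single experiment, and the 3 replicate numbers stand for 3 independent experiments. The other stages of the study, each with 3 mannitol and 3 control arrays of its own, were seedling shoots with no stated day, leaf 3 while expanding (day 15, 7 mm2) and leaf 3 when mature (day 22, 40 mm2). The treatment text of the labels mentions mannitol even for control samples, so the groups rest on the sample titles and the stress field. Every value is a log2 level from an Affymetrix ATH1 array, 1 per locus for 20777 loci, and a log2 change of 1 is a 2-fold difference.

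A leaf first grows by cell division throughout its blade, and division then gives way to cell expansion and differentiation. Mannitol, a sugar alcohol, makes water harder for roots to take up, and at low doses it slows leaf growth without killing the plant. In young leaves of plants on mannitol, ethylene signalling through the ERF5 and ERF6 transcription factors and the gibberellin-inactivating enzyme GA2OX6 are known parts of the growth response.

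The labelled tissue was checked against markers fixed in the design. Division genes were high in proliferating control leaf: the B-type cyclin CYCB1;1 lay between 8.47 and 8.70 there and between 4.38 and 4.60 in expanding control leaf, and the growth co-activator AN3 between 9.26 and 9.44 against 4.44 to 5.05. The phloem sucrose transporter SUC2 was low in proliferating control leaf, at 4.78 to 4.98, against 9.86 to 10.28 in expanding control leaf. Of 42 measured markers of proliferating, vascular, guard, stomatal lineage, trichome, meristem, root and epidermal cells, 0 were called between mannitol and control leaf in the limma fit, and 7 had an unadjusted p below 0.05, each lower with mannitol. Of all 20777 loci, 2050 had an unadjusted p below 0.05, in either direction. With the replicate block the vascular marker SWEET11 (-0.48, adjusted p = 0.0143, against 0.0549 without the block) and the meristem marker KNAT1 (-0.43, adjusted p = 0.0373, against 0.448) were called. SWEET11 was also called in 4 other alternatives, at adjusted p from 0.0107 to 0.0325. The 4 mesophyll markers have no locus in the table. On the log2 scale, the summed level of the 6 vascular markers was 7.04 to 7.19 on the mannitol arrays and 7.27 to 7.46 on the control arrays, and that of the 5 stomatal lineage markers was at most 10.23 on the mannitol arrays and at least 10.25 on the control arrays. The vascular markers were low in this leaf, with medians of 4.28 to 4.53 on the mannitol arrays and 4.66 to 4.69 on the control arrays. The summed levels of the other marker groups overlapped between mannitol and control arrays. Within each same-numbered pair, however, the sum of the 8 proliferating cell markers was lower with mannitol, at 12.6, 12.73 and 12.81 on the mannitol arrays and 12.77, 12.74 and 12.9 on the control arrays. The sum of the 3 epidermis markers was lower in each pair too, at 13.15, 13.29 and 13.39 with mannitol and 13.37, 13.31 and 13.46 in controls. The part of these shifts in the results below was not tested, and in such bulk tissue fewer cells of a type and less RNA per cell cannot be told apart.

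Among the loci that rose, the same mannitol array was most often the highest. Mannitol replicate 1 held the highest of the 3 mannitol values for 261 of the 327 loci that rose (79.8%), against 36.2% of all loci, and for all 24 of the largest rises. Array medians were 6.14, 6.16 and 6.16 with mannitol and 6.13, 6.11 and 6.12 in controls, a difference of 0.035 (exact two-sided permutation test, p = 0.1, the smallest that 3 against 3 arrays allow). Interquartile ranges were also all wider with mannitol, at 3.88, 3.92 and 3.91 against 3.86, 3.85 and 3.84 in controls. That difference was 0.057 (same permutation test, p = 0.1). Correlations between arrays of a group were at least 0.9932, which was the lowest value for both mannitol replicate 1 and mannitol replicate 2. Without mannitol replicate 1, 224 loci rose and 14 fell, against 327 and 50 with it.

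Most of the loci called in the dividing leaf were higher with mannitol. Of 20777 loci, 327 rose (1.57%) and 50 fell (0.241%) at a Benjamini-Hochberg adjusted p under 0.05 in limma, so 86.7% of the 377 called loci (1.81%) were higher with mannitol. The rises were also larger: 144 were at least 2-fold (0.693%) and 53 at least 4-fold, while 5 falls reached 2-fold (0.0241%). The median log2 change was 0.92 over the rises, -0.53 over the falls and -0.03 over all loci. The 3 mannitol values lay above the 3 control values for 325 of the rises (7.11% of all loci did so) and below them for 46 of the falls (9.94% of all loci). Within each of the 3 same-numbered pairs every called locus kept its direction, which the lack of overlap fixes in advance for nearly all of them. The median changes of the rises in the pairs were 1.22, 0.73 and 0.85, on the same arrays that gave the calls. The count of falls depended most on single arrays: it was 14 without mannitol replicate 1, 111 without mannitol replicate 2, 30 without mannitol replicate 3, 32 without control replicate 1 and 25 without control replicate 2. With the replicate number as a block within each stage, 503 loci rose (2.42%) and 165 fell (0.794%), and 319 of the 327 rises and 48 of the 50 falls were among them.

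**Figure D1:**
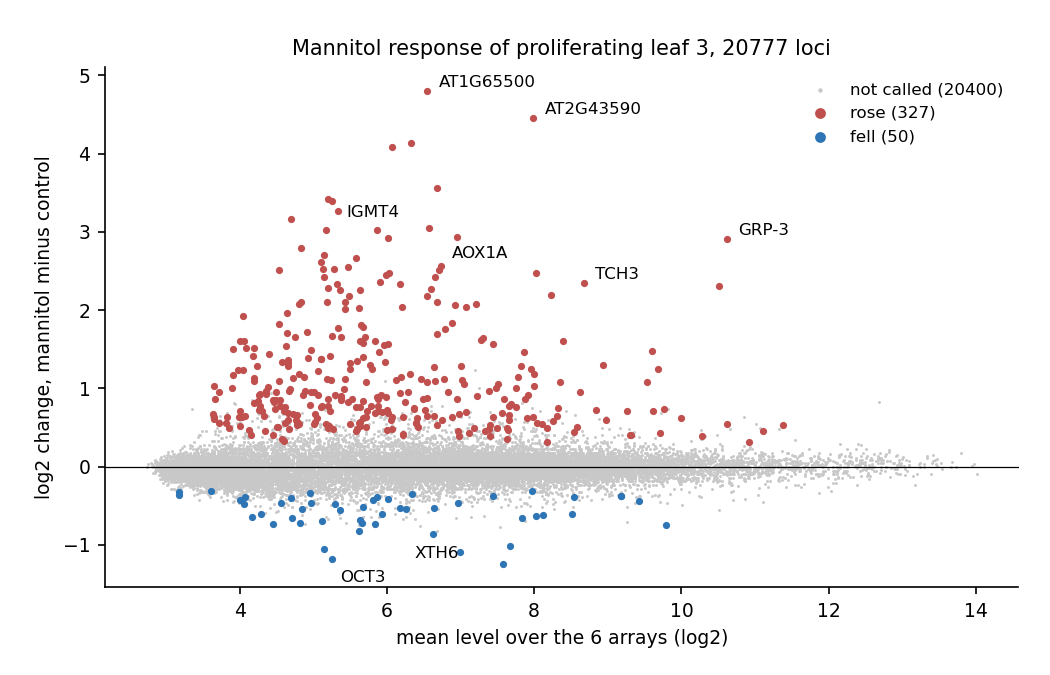
Log2 change, mannitol minus control (vertical axis), against the mean log2 level over the 6 arrays (horizontal axis) for 20777 loci, each a point; the 327 loci that rose are red, the 50 that fell are blue and the rest are grey. The rises reach 4.80 (AT1G65500) and the falls stay within -1.24.

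Of the 24 largest rises, 12 had a control mean below 4.1, near the lower end of the scale, and the others were higher in control leaf, up to 9.17 for GRP-3. The locus AT1G65500, which the reference table leaves without a symbol, had levels of 9.90, 8.27 and 8.68 on the mannitol arrays and 4.15, 4.23 and 4.07 on the control arrays. Its change was 4.80 (SE 0.279, adjusted p = 2.4e-10), the largest of all loci, and the lowest mannitol value stood far above the highest control value. AT2G43590 had 10.88, 9.85 and 9.94 with mannitol and 5.53, 5.60 and 6.15 in controls, a change of 4.46 (SE 0.38, adjusted p = 7.53e-08). The groups were again widely separated, and as for AT1G65500 mannitol replicate 1 was the highest array. AT3G16530 (4.14) and AT2G43620 (4.08) completed the 4 changes above 4.

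Among the largest rises with a known product, BCB, a blue copper-binding protein, had 8.88, 8.17 and 8.32 with mannitol and 4.85, 5.32 and 4.54 in controls (3.56, SE 0.301, adjusted p = 7.48e-08). PNP-A, a secreted natriuretic peptide homologue that acts on water and ion balance, had 7.21, 6.66 and 7.00 with mannitol and 3.58, 3.48 and 3.61 in controls (3.40, SE 0.555, adjusted p = 0.000673). SAG21, a late embryogenesis abundant family protein, had 8.95, 7.49 and 7.87 with mannitol and 5.60, 4.88 and 4.66 in controls (3.05, SE 0.366, adjusted p = 1.45e-05). No mannitol array overlapped a control array for these 3 genes. GRP-3, a glycine-rich wall protein that binds the wall-associated kinase WAK1, was high in both groups, at 12.24, 11.90 and 12.10 with mannitol and 8.83, 9.22 and 9.47 in controls. Its spread was small for a change of 2.91 (12.08 ± 0.173 with mannitol and 9.17 ± 0.319 in controls, SD, n = 3 each; SE 0.125, adjusted p = 1.1e-12), which gave it the smallest p of the named loci. The rest of the 24 largest rises changed by 2.51 to 3.42 and include the ubiquitin ligase family gene XBAT34 (3.02) and the loci AT1G26420 (3.16) and AT1G26380 (3.03). In control leaf, 12 of the 24 had a mean level below 4.1, the level under which loci were treated as dim.

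**Figure D2:**
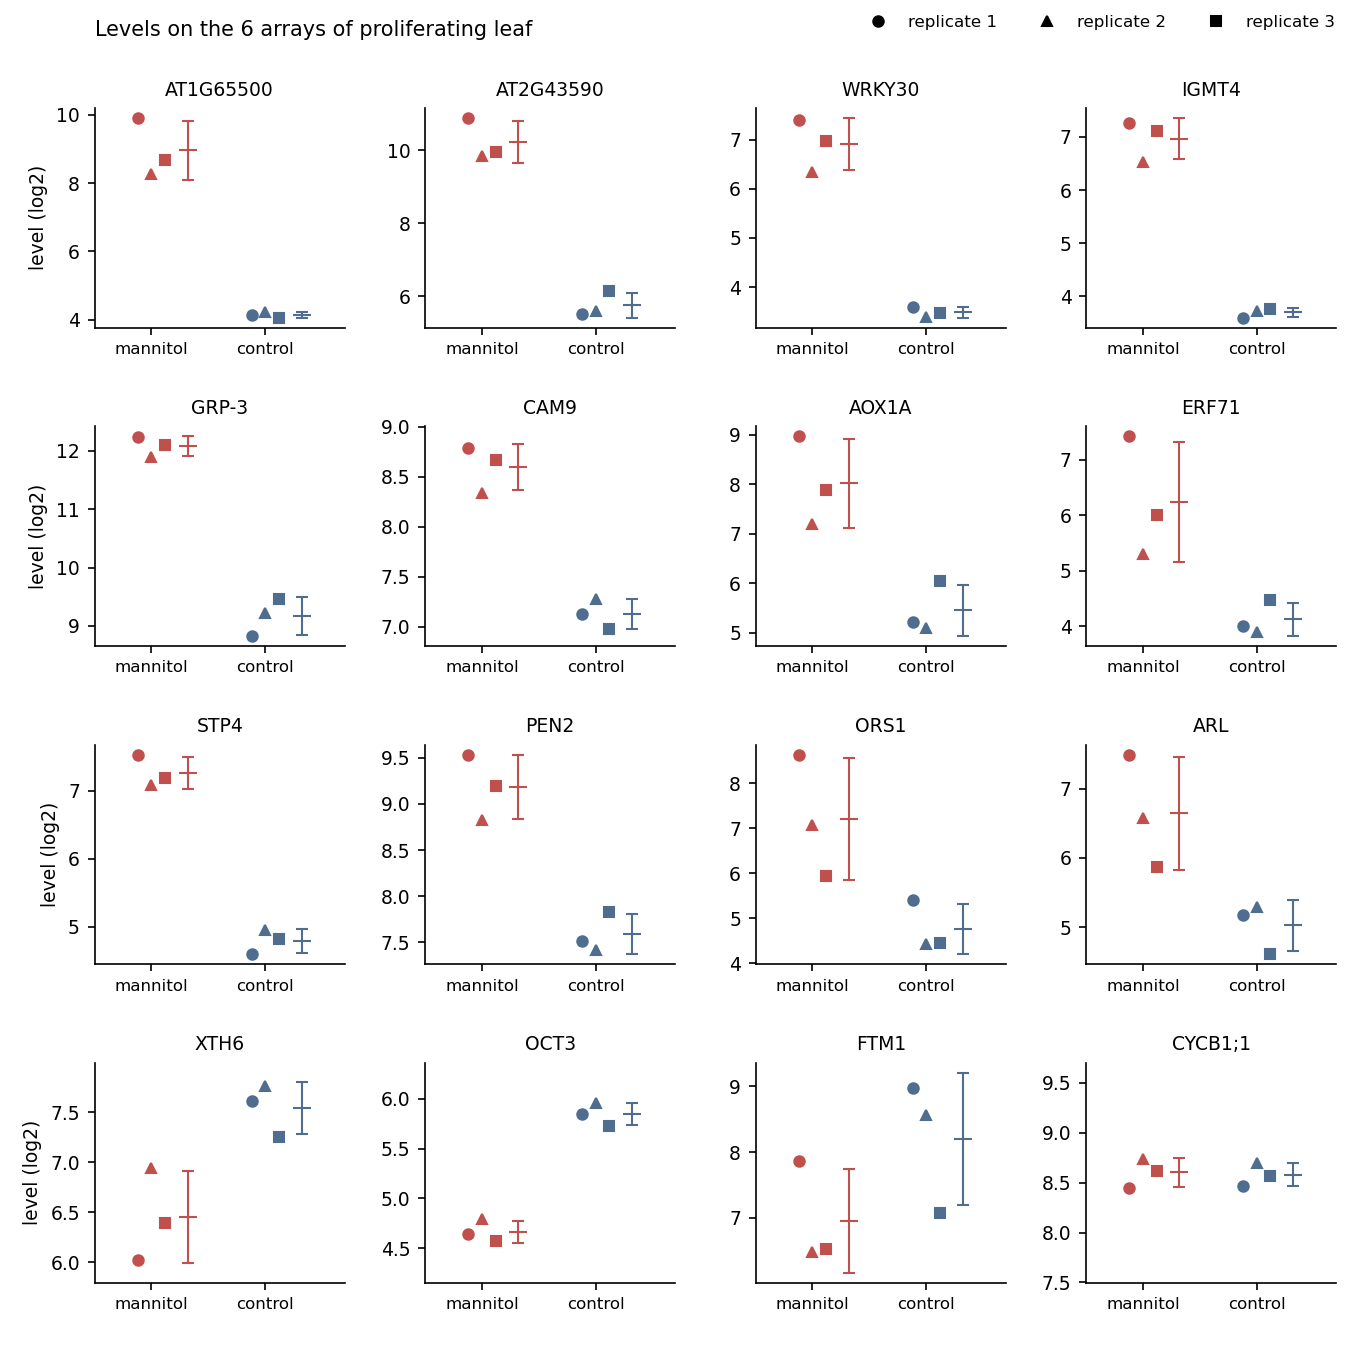
Log2 levels of 16 genes on the 3 mannitol arrays (red) and 3 control arrays (blue) of proliferating leaf, with marker shapes for replicates 1 to 3 and, beside them, the mean and SD. The groups are separate for all but FTM1 and CYCB1;1, and replicate 1 is the highest mannitol array in each panel of a gene that rose.

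Some receptor kinases and calcium sensors, which act early in stress signalling, rose. Counts in the lists from here on stand beside 1.57% of all loci that rose and 0.241% that fell. With the replicate block these shares were 2.42% and 0.794%. An unadjusted p below 0.05, used for some of the list counts, was reached by 2050 of all 20777 loci, in either direction. Of 37 measured cysteine-rich receptor-like kinases (CRK), 9 rose and 0 fell, with a median change of 0.03 over the list. CRK14 had 6.21, 5.43 and 5.89 with mannitol and 3.67, 3.82 and 3.81 in controls, a change of 2.08 (SE 0.205, adjusted p = 6.36e-07). CRK11 (1.34), CRK31 (1.24), CRK10 (1.14) and CRK2 (0.94) also rose, and kept their calls in each alternative that tested them. Of 11 WAK and WAKL kinases, 0 were called and 0 had an unadjusted p below 0.05.

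Of 13 calmodulin-like calcium sensors, 3 rose. CAM9 had 8.79, 8.34 and 8.67 with mannitol and 7.13, 7.28 and 6.98 in controls (1.47, SE 0.103, adjusted p = 4.15e-09). TCH3, a touch-induced sensor, had 9.84, 9.81 and 9.90 with mannitol and 7.10, 8.04 and 7.36 in controls (2.35, SE 0.428, adjusted p = 0.00218). Both groups were fully separate for each, and the mannitol values of TCH3 were much tighter than its control values. The third, CML42, rose by 0.62 and lost its call without mannitol replicate 1 (adjusted p = 0.0564). Of 31 calcium-dependent protein kinases 0 were called and 5 were higher at an unadjusted p below 0.05; with the replicate block, CPK29 (0.59, adjusted p = 0.0259) and CPK6 (0.55, adjusted p = 0.0202) were called.

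Of 31 immune receptors and MAP kinases, 5 rose and 0 fell: PROPEP3, the precursor of a danger peptide (1.49), the MAP kinases MPK11 (0.74) and MPK3 (0.62), LYK5, a receptor of chitin (0.72), and the MAP kinase kinase MEK1 (0.71). All 3 mannitol values exceeded all 3 control values for each of the 5. Each call ended without 1 or 2 of the arrays: without mannitol replicate 1 for PROPEP3 (adjusted p = 0.0829) and MEK1 (0.0501), without control replicate 2 for LYK5 (0.0545), and without control replicate 1 for MPK11 (0.0634, and 0.0506 without mannitol replicate 3) and MPK3 (0.0987). The list then counted 3 rises without control replicate 1.

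Some transcription factors known from stress responses rose, while most members of each family were not called. Of 62 WRKY factors 8 rose and 0 fell, with a median of 0.04 over the list, and 5 rose without mannitol replicate 1. WRKY30 had 7.40, 6.35 and 6.98 with mannitol and 3.60, 3.39 and 3.47 in controls (3.42, SE 0.292, adjusted p = 7.53e-08). WRKY33, an activator of camalexin synthesis, had 6.91, 7.27 and 7.07 with mannitol and 5.73, 6.25 and 6.02 in controls (1.08, SE 0.191, adjusted p = 0.00155). Both were separate between the groups, and for WRKY33 the highest mannitol array was replicate 2. WRKY53 (1.34), WRKY6 (1.12) and WRKY8 (0.95) also rose, WRKY53 and WRKY8 in all 13 alternatives.

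Of 11 activators of ERF group IX, which act in ethylene and defence responses, 2 rose. ERF5 had 6.20, 6.65 and 6.28 with mannitol and 4.76, 5.27 and 4.90 in controls, a change of 1.40 (6.38 ± 0.235 with mannitol and 4.98 ± 0.265 in controls, SD, n = 3 each; SE 0.17, adjusted p = 1.75e-05). ERF2 changed by 0.71 (adjusted p = 0.03) and lost its call without mannitol replicate 1 (0.0814), mannitol replicate 3 (0.152), control replicate 1 (0.202) or control replicate 3 (0.0941). ERF6 had 5.18, 6.44 and 5.99 with mannitol and 4.83, 5.79 and 5.01 in controls. Those groups overlap, and the change of 0.66 was not called (adjusted p = 0.237) except with the replicate block (0.0276), without mannitol replicate 1 (0.0141) or without control replicate 2 (0.0388). Of 7 repressors of ERF group VIII, 0 were called and 1, ERF11 (0.61, adjusted p = 0.311), was higher at an unadjusted p below 0.05.

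Of 7 zinc finger factors of the ZAT and AZF group 3 rose (STZ 1.27, ZAT6 0.85 and RHL41 0.56), and the count was 0 without mannitol replicate 1, 1 without control replicate 1 and 1 without control replicate 3. Of 121 MYB factors 2 rose (1.65%, near the 1.57% of all loci), with a median of -0.06 over the list and 6 members higher and 8 lower at an unadjusted p below 0.05. They were MYB15, a regulator of defence lignin and cold responses (1.13, adjusted p = 5.48e-06), and MYB51, an activator of indole glucosinolate synthesis (0.99, adjusted p = 0.000679). MYB15 had 5.13, 4.35 and 4.79 with mannitol and 3.56, 3.73 and 3.60 in controls, with no overlap. Of 13 stress NAC factors NAC13 (0.96, adjusted p = 0.00109) and NAC053 (0.67) rose, the second not without mannitol replicate 1 (adjusted p = 0.098).

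Some genes that make and modify indole defence compounds rose. Of 19 indole glucosinolate enzymes and factors, 7 rose and 0 fell (36.8% of the list, median 0.21). CYP79B2, which turns tryptophan into indole-3-acetaldoxime, had 6.62, 6.14 and 6.58 with mannitol and 4.81, 4.55 and 5.14 in controls (1.61, SE 0.227, adjusted p = 0.000118). PEN2 (AT2G44490), a myrosinase that cleaves indole glucosinolates in defence, had 9.53, 8.83 and 9.19 with mannitol and 7.51, 7.42 and 7.83 in controls (1.60, SE 0.154, adjusted p = 4.93e-07). CYP81F2, which hydroxylates the indole ring, rose by 1.82 (SE 0.221, adjusted p = 1.72e-05), and the groups did not overlap for any of these 3 genes. The paralogue CYP79B3 changed by 0.19 (adjusted p = 0.869) and CYP83B1, the next enzyme of the route, by 0.24 (adjusted p = 0.652), both named after their values were seen. Of 17 aliphatic glucosinolate enzymes and factors 0 were called, and 0 had an unadjusted p below 0.05 (median -0.11).

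Of 4 indole glucosinolate methyltransferases, 3 rose. IGMT4 had 7.26, 6.53 and 7.12 with mannitol and 3.60, 3.73 and 3.76 in controls, a change of 3.27 (6.97 ± 0.384 with mannitol and 3.70 ± 0.0854 in controls, SD, n = 3 each; SE 0.236, adjusted p = 6.12e-09). IGMT2 (1.92, adjusted p = 0.000346) and IGMT1 (1.61, adjusted p = 0.000349) had smaller changes, with control values between 3.05 and 3.27. Of 5 camalexin enzymes, the cytochrome P450s CYP71A13 (2.42, adjusted p = 2.85e-05), CYP71A12 (1.24, adjusted p = 0.00495) and PAD3 (1.03, adjusted p = 0.0354) rose, but only CYP71A13 without mannitol replicate 1 (CYP71A12 adjusted p = 0.0545, PAD3 0.167). PAD3, the last enzyme of the route, lost its call without any 1 of the 6 arrays, at adjusted p from 0.0731 to 0.167.

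Detoxification enzymes rose in small numbers out of large families. Of 44 glutathione transferases 5 rose and 0 fell, and with the replicate block 5 rose and ERD9 fell (-0.41, adjusted p = 0.0324), named after its values were seen. GSTU12 had 7.31, 5.74 and 6.12 with mannitol and 3.77, 3.80 and 4.02 in controls (2.52, SE 0.291, adjusted p = 7.79e-06), and GSTU11 had 6.57, 5.22 and 5.89 with mannitol and 3.63, 3.94 and 3.80 in controls (2.1, SE 0.203, adjusted p = 4.93e-07). Both were separate between groups and highest on mannitol replicate 1. The list held 2 rises without mannitol replicate 1 and 3 without control replicate 1 or control replicate 2; GSTF10 (0.71), GSTF9 (0.53) and GSTF8 (0.46) were the members that lost a call. Of 197 cytochrome P450 enzymes 9 rose (4.57%) and 1 fell (0.508%), against 1.57% and 0.241% of all loci (median of the list -0.04). With the replicate block 14 rose and 5 fell, against 2.42% and 0.794% of all loci. CYP71B7 had 7.46, 6.35 and 6.50 with mannitol and 4.37, 4.36 and 4.80 in controls (2.26, SE 0.191, adjusted p = 7.48e-08), and its relative CYP71B6 rose by 1.64 (adjusted p = 2.51e-06). Of 59 UDP-glycosyltransferases 4 rose, with 2 left without any single control array and 1 without mannitol replicate 1. The largest was UGT74E2, which glucosylates the auxin precursor indole-3-butyric acid, at 7.36, 5.87 and 6.42 with mannitol and 4.44, 4.77 and 5.02 in controls (1.81, SE 0.368, adjusted p = 0.00641, and 0.076 without mannitol replicate 1).

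Some nuclear genes known to respond to mitochondrial stress rose. AOX1A, the alternative oxidase that passes electrons from ubiquinol to oxygen past the cytochrome chain, had 8.97, 7.19 and 7.89 with mannitol and 5.22, 5.09 and 6.04 in controls. Its change was 2.57 (8.02 ± 0.895 with mannitol and 5.45 ± 0.518 in controls, SD, n = 3 each; SE 0.286, adjusted p = 4.22e-06), and the groups did not overlap although both spread widely. Of 11 mitochondrial retrograde markers, nuclear genes known to respond to impaired mitochondria, 6 rose and 0 fell (54.5%, median 0.78), with 4 rises without mannitol replicate 1 and 3 with the 6 arrays alone. They were UGT74E2 (1.81, not called without mannitol replicate 1 at an adjusted p of 0.076), CYP81D8 (1.36), the auxin transporter ABCB4 (1.13), NAC13, a factor that activates such genes (0.96), the cytokinin response factor CRF6 (0.83) and the outer membrane ATPase BCS1 (0.78). CRF6 was named after its values were seen. It lost its call without mannitol replicate 1, where the list counted 4 rises. It also lost it without mannitol replicate 3 or any single control array, where the list counted 5. AT2G21640 had 8.73, 7.02 and 7.47 with mannitol and 5.74, 5.73 and 5.43 in controls (2.11, SE 0.315, adjusted p = 0.000253). The alternative respiration list had 18 measured genes, and 4 rose (median 0.06 over the list): AOX1A, the external NAD(P)H dehydrogenases NDB4 (0.93) and NDB2 (0.87), and the dicarboxylate carrier UCP5 (0.75). The count was 2 without mannitol replicate 1, control replicate 1 or control replicate 3, where AOX1A kept its call.

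Of 49 transporters of sugars and polyols 4 rose and 0 fell (median -0.09), with 5 higher and 6 lower at an unadjusted p below 0.05. With the replicate block 5 rose and 3 fell: the fifth rise was STP1 (0.61, adjusted p = 0.00478), and the falls were SWEET2 (-0.49, 0.00709), SWEET16 (-0.60, 0.0231) and SWEET11 (-0.48, 0.0143), of which STP1, SWEET2 and SWEET16 were named after their values were seen. STP4, a hexose symporter of the plasma membrane, had 7.53, 7.08 and 7.19 with mannitol and 4.60, 4.95 and 4.82 in controls (2.48, SE 0.161, adjusted p = 1.23e-09). PMT5, a symporter of polyols and monosaccharides, had 8.81, 7.69 and 8.26 with mannitol and 6.32, 6.03 and 6.18 in controls (2.08, SE 0.206, adjusted p = 6.54e-07). Both groups stood clear of each other for these 2 genes, and STP4 spread less than PMT5 on the mannitol arrays (SD 0.237 against 0.557) but not on the control arrays (0.177 against 0.145). The tonoplast inositol transporter INT1 rose by 0.43 in all 13 alternatives, and the hexose symporter MSS1 by 1.35, with the call lost without mannitol replicate 1 (adjusted p = 0.143), mannitol replicate 3 (0.0857) or control replicate 2 (0.147). Of 24 genes of proline, raffinose and trehalose metabolism 0 were called and 2 were higher at an unadjusted p below 0.05. The same 2, TPS8 (0.46, adjusted p = 0.0212) and PROT2 (0.42, adjusted p = 0.0077), were called with the replicate block.

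Hormone genes changed in few members of each list, where 1.57% of all loci rose and 0.241% fell. Of 29 ethylene genes 3 rose: ARL, a growth gene induced by ethylene and brassinosteroid (1.61), and the receptors ERS2 (0.71) and ERS1 (0.50); 1 rose without control replicate 1, control replicate 2 or mannitol replicate 1. Of 46 abscisic acid and dehydration genes 2 rose, RD22 (0.71, adjusted p = 0.000709) and the protein phosphatase ABI1, a negative regulator of abscisic acid signalling (0.66, adjusted p = 0.00228), and both did so in all 13 alternatives. With the replicate block COR47, a dehydrin named after its values were seen, fell (-0.63, adjusted p = 0.0312). The dehydration gene LTI78, also known as RD29A, had 5.20, 6.63 and 6.24 with mannitol and 6.20, 7.11 and 6.53 in controls. Those groups overlap, and the change of -0.59 was not called (adjusted p = 0.545). Of 33 jasmonate genes the repressor JAZ1 rose (1.25, adjusted p = 0.00394) and CYP94B3, which inactivates jasmonoyl-isoleucine, fell by 0.40 (adjusted p = 0.03; 0.106 without mannitol replicate 1, 0.185 without mannitol replicate 3 and 0.202 without control replicate 1). With the replicate block the lipoxygenase LOX4, named after its values were seen, rose too (0.55, adjusted p = 0.0125). The salicylate marker PR1 had 4.17, 4.39 and 4.33 with mannitol and 4.60, 4.69 and 4.47 in controls (-0.29, adjusted p = 0.933), while PR5, also used as a salicylate marker, rose by 2.19 (adjusted p = 0.0028) and was the only call among 20 such genes in the fit without the replicate block. With the block 4 of them rose, PR5 and the immune regulators EDS1 (0.32, adjusted p = 0.0351), CBP60G (0.60, 0.0312) and DMR6 (0.60, 0.0109), the last 3 named after their values were seen; without it 4 were higher at an unadjusted p below 0.05.

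Of 34 gibberellin genes 0 were called and 1, GA2OX6, was higher at an unadjusted p below 0.05. GA2OX6 had 5.91, 6.31 and 6.34 with mannitol and 5.71, 6.0 and 5.79 in controls, with overlap. Its change of 0.35 had an adjusted p of 0.132, 0.0463 with the replicate block and 0.0161 without mannitol replicate 1. Of 28 Aux/IAA repressors 0 were called and 3 were lower at an unadjusted p below 0.05, of which SHY2 (-0.36, adjusted p = 0.244) was called with the replicate block (0.0383). Of 30 cytokinin and 13 brassinosteroid genes 0 were called and 1 in each was lower at that threshold.

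Of 3 measured ARGOS family genes, small proteins that promote organ growth, ORS1 and ARL rose. ORS1 had 8.63, 7.06 and 5.93 with mannitol and 5.40, 4.43 and 4.44 in controls (7.21 ± 1.36 with mannitol and 4.76 ± 0.558 in controls, SD, n = 3 each; 2.45, SE 0.416, adjusted p = 0.00101). ARL had 7.49, 6.57 and 5.87 with mannitol and 5.18, 5.29 and 4.61 in controls (1.61, SE 0.285, adjusted p = 0.00155). The mannitol arrays of both genes spread more than the control arrays without overlapping them, and neither gene was called in the fit of the 6 arrays alone (adjusted p = 0.128 for ORS1 and 0.1 for ARL). Of 14 hypoxia genes 2 rose and 1 fell. ERF71, an ERF factor of the low oxygen response, had 7.42, 5.30 and 6.0 with mannitol and 4.01, 3.91 and 4.47 in controls (2.11, SE 0.309, adjusted p = 0.000204; 0.0843 with the 6 arrays alone). The haemoglobin HB1 rose by 1.06 (adjusted p = 0.0361), a call lost without mannitol replicate 1 (0.231), control replicate 1 (0.0594), control replicate 2 (0.151) or control replicate 3 (0.113). The fall was that of FTM1, an acyl carrier protein desaturase family gene, at 7.87, 6.48 and 6.53 with mannitol and 8.97, 8.56 and 7.07 in controls. These groups overlap, since mannitol replicate 1 exceeded control replicate 3, and the change of -1.24 (adjusted p = 0.0494) was not called without mannitol replicate 2 (0.208), mannitol replicate 3 (0.255), control replicate 1 (0.309) or control replicate 2 (0.24).

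Cell division, replication and growth regulators were not called at this stage. Of 34 mitotic, 26 replication, 17 endocycle and 26 leaf growth regulator genes 0 were called in limma; at an unadjusted p below 0.05 there were 0 higher members, with 2, 0, 5 and 2 lower ones. The median changes were -0.08, -0.10, -0.17 and -0.04, against -0.03 over all loci. Of all 20777 loci, 2050 had an unadjusted p below 0.05, in either direction. CYCB1;1 had 8.45, 8.74 and 8.62 with mannitol and 8.47, 8.70 and 8.57 in controls, a change of 0.03 (SE 0.144, adjusted p = 0.98). AN3 had 9.34, 9.27 and 9.32 with mannitol and 9.44, 9.26 and 9.37 in controls (-0.05, SE 0.195, adjusted p = 0.975). The groups overlapped for both genes. With the replicate block the D-type cyclin CYCD6;1 (-0.36, adjusted p = 0.0423) and the growth regulator GRF6 (-0.39, adjusted p = 0.0325) were called. Of 21 core histones the H3 gene HTR11 fell by 0.53 (adjusted p = 0.03; 0.2 without mannitol replicate 1, 0.071, 0.0571 and 0.148 without control replicate 1, 2 and 3).

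Cell wall genes held both falls and rises, where 0.241% of all loci fell and 1.57% rose. Of 33 xyloglucan endotransglucosylases, enzymes that cut and rejoin wall xyloglucan, 2 fell and 1 rose. XTH6 had 6.02, 6.94 and 6.39 with mannitol and 7.61, 7.76 and 7.25 in controls (-1.09, SE 0.207, adjusted p = 0.00347; 0.0703 with the 6 arrays alone), with all mannitol values below all control values; XTH16 changed by -0.60 and XTH30 by 0.57. XTH16 lost its call without mannitol replicate 1 (adjusted p = 0.118), mannitol replicate 3 (0.146), control replicate 1 (0.102) or control replicate 2 (0.203). XTH30 lost it without mannitol replicate 1 (0.131), control replicate 1 (0.0567) or control replicate 3 (0.0836), and XTH6 with the 6 arrays alone (0.0703). Of 44 arabinogalactan and fasciclin proteins AGP5 (1.42) and AGP2 (0.92) rose and AGP21 (-0.75) and FLA15 (-0.55) fell; 11 members were lower at an unadjusted p below 0.05, and AGP2 kept its call in all 13 alternatives. AGP5 lost its call without mannitol replicate 1 (adjusted p = 0.1), mannitol replicate 3 (0.0609), control replicate 1 (0.0514) or control replicate 2 (0.0517), and FLA15 without mannitol replicate 1 (0.0623) or control replicate 3 (0.0621). Of 25 expansins, which loosen the wall, 0 were called, 1 was higher and 4 were lower at an unadjusted p below 0.05, and with the replicate block EXPA11 (-0.58, adjusted p = 0.00856) and EXPA5 (-0.37, adjusted p = 0.0214) were called. The pectin methylesterase ATPMEPCRB had 8.23, 7.59 and 8.07 with mannitol and 6.01, 6.07 and 5.59 in controls (2.07, SE 0.201, adjusted p = 5.2e-07). It was the only call among the 19 measured genes on the list of pectin methylesterases and inhibitors, and genes outside that list were not counted. Of 27 aquaporins the tonoplast channel DELTA-TIP fell by 0.44 (adjusted p = 0.0293), a call lost without mannitol replicate 2 (0.0926), mannitol replicate 3 (0.23), control replicate 1 (0.102) or control replicate 2 (0.135), and with the replicate block NIP1;2, named after its values were seen, rose (0.35, adjusted p = 0.0325).

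The falls were few and small. OCT3, an organic cation and carnitine transporter, had 4.64, 4.79 and 4.57 with mannitol and 5.85, 5.96 and 5.73 in controls, a change of -1.18 (4.67 ± 0.114 with mannitol and 5.85 ± 0.117 in controls, SD, n = 3 each; SE 0.167, adjusted p = 0.000122). Every mannitol array was below every control array, and both groups were tight. The auxin biosynthesis gene YUC2 had 5.03, 5.56 and 5.31 with mannitol and 6.0, 6.07 and 5.98 in controls (-0.72, SE 0.157, adjusted p = 0.0132; 0.131 without mannitol replicate 1 and 0.0627 without control replicate 2). AGP21 fell by 0.75 (adjusted p = 0.000973). The falls called in all 13 alternatives were 5 of 50, namely OCT3, AT2G45840 (-0.73), AT2G04795 (-0.66), AT3G06035 (-0.62) and AT1G78020 (-0.53), against 141 of 327 rises; the last 2 were named after their values were seen.

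Taking 56 lists other than cell type markers, 37 held a rise, 9 held a fall and 17 held no call. Of 1704 distinct listed loci 97 rose (5.69%) and 10 fell (0.587%), against 1.57% and 0.241% of all loci; the lists were drawn up with earlier results of these data known, so these shares describe the lists and do not test them. Without mannitol replicate 1, 64 listed loci rose and 5 fell. The falls numbered 16 without mannitol replicate 2, 5 without control replicate 1 and 6 without control replicate 2. The replicate block moved some lists by more than single calls: of 73 plastid genome transcripts 1 rose without the block and 7 with it, and of 7 listed chitinases 1 rose and 0 fell without it and 3 rose and 1 fell with it. The rise without the block was CHI. Its chromosomal neighbours AT2G43590 (4.46), AT2G43610 (1.08) and AT2G43620 (4.08) are not in that list, so its counts leave them out. Of 21 senescence genes 5 rose, among them BCB, SAG21 and YLS5 (1.18), and the list counted 5 in every leave-one-out fit. Of 35 nuclear photosystem genes 0 were called and 0 had an unadjusted p below 0.05; of 21 flavonoid genes 0 were called, with 1 higher and 5 lower at that threshold, and chalcone synthase TT4 changed by -0.36 (adjusted p = 0.633).

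**Figure D3:**
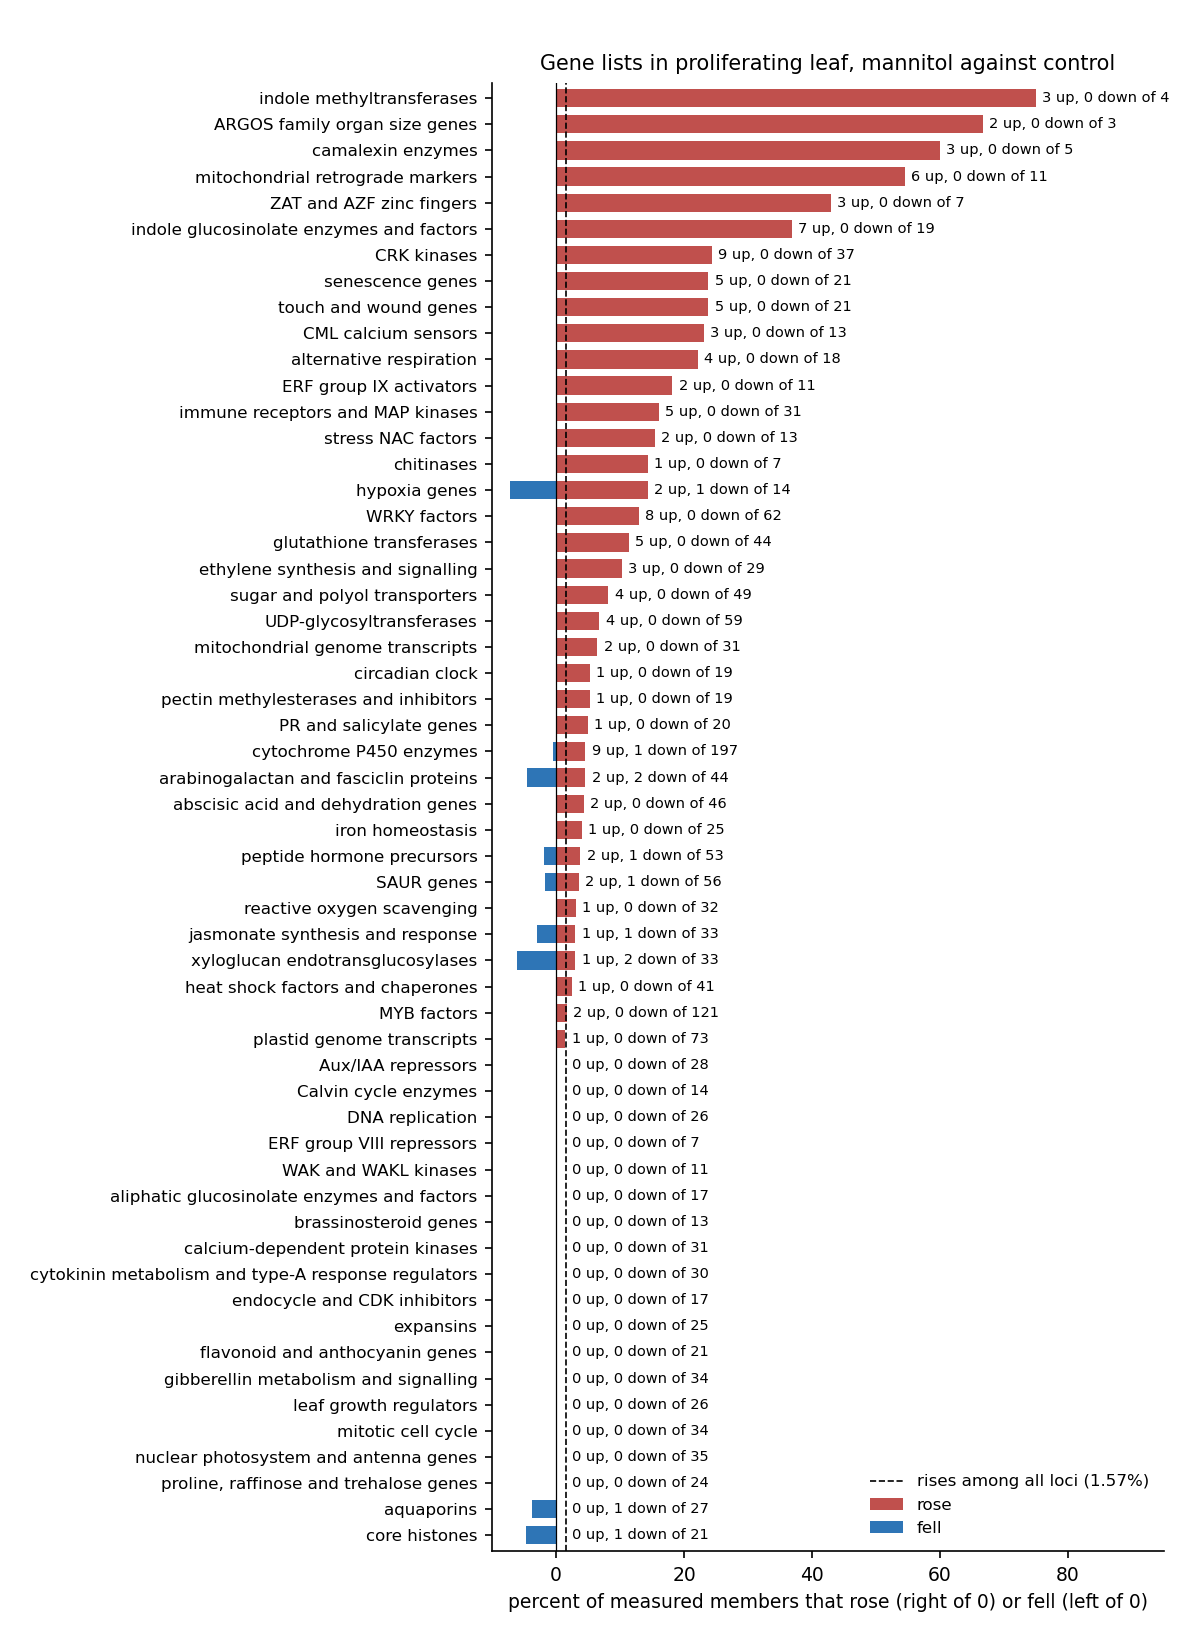
Percent of measured members of each of 56 gene lists that rose (red, right of 0) or fell (blue, left of 0) with mannitol, with counts beside each bar; the dashed line is the 1.57% of all loci that rose. Indole methyltransferases (3 of 4), ARGOS genes (2 of 3), camalexin enzymes (3 of 5) and mitochondrial retrograde markers (6 of 11) have the highest shares, and division, replication and photosystem lists have none.

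Some of the rises lay close together on the chromosome. In the gene order of the RefSeq table (assembly TAIR10.1), 322 of the 327 rises could be placed, and 77 of them (23.9%) lay within 5 genes of another rise, in 33 runs. The same share was not computed for other loci, so whether 23.9% is more than spacing alone gives was not tested. The longest run held 6 CRK genes of 11 measured across 12 genes of chromosome 4: CRK10, CRK11, CRK14, CRK18 (0.71), CRK19 (1.5) and CRK20 (1.61). Another held CHI (2.33), AT2G43590, AT2G43610 (1.08) and AT2G43620 on chromosome 2, and the 3 IGMT genes that rose formed 1 run on chromosome 1. CRK18, CRK19, CRK20 and AT2G43610 were named after their values were seen. Tandem copies can share probes, and whether they do cannot be read from the deposited table, so members of a run may not be independent measurements.

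The response was set beside that at the other stages, each of which has its own mannitol and control arrays. Of the 327 rises, 113 also rose in seedlings (34.6% of these and 46.3% of the 244 seedling rises, which are 1.17% of loci), 209 in expanding leaf (63.9% and 25.0% of 836, 4.02% of loci) and 22 in mature leaf (6.73% and 3.54% of 621, 2.99% of loci). The median change of the 327 loci was 0.49 in seedlings, 0.81 in expanding leaf and 0.08 in mature leaf. Of the 50 falls, 5 also fell in seedlings (10% of these; 0.274% of loci fell there), 15 in expanding leaf (30.0%; 3.62% of loci) and 3 in mature leaf (6.0%; 1.84% of loci).

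The difference of the mannitol response was tested for each locus. It was called for 43 loci against seedlings (0.207%), 270 against expanding leaf (1.3%), 548 against mature leaf (2.64%) and 767 in the F test of all 3 differences (3.69%). Among the 327 rises, 24 were larger than in seedlings (0.14% of all loci had a higher response in proliferating leaf) and 3 smaller (0.0674% lower). Against expanding leaf 32 were larger (0.655%) and 15 smaller (0.645%), and against mature leaf 172 were larger (1.38%) and 0 smaller (1.26%). The 327 rises were picked by their change in proliferating leaf, which enters each difference. That pick favours larger over smaller differences, so these counts do not compare the stages. The difference from expanding leaf was called for 175 loci without control replicate 3, that from mature leaf for 359 without mannitol replicate 1, and with the replicate block the counts were 108, 534 and 1014.

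Of the loci that rose in proliferating leaf, 12 responded more strongly than at each of the other 3 stages by the test of each difference. They are AOX1A, GRP-3, IGMT4, CAM9, STP4, CYP71B7, MYB15 and the loci AT1G65490, AT3G10930, AT2G29340, AT4G35110 and AT3G29970. AOX1A changed by 2.57 here, and by 0.07 in seedlings, -0.01 in expanding leaf and -0.33 in mature leaf (adjusted p of the differences 0.00511, 0.00128 and 0.000169). CAM9 changed by 1.47 in proliferating leaf and by 0.19, 0.10 and -0.07 in seedling, expanding leaf and mature leaf (adjusted p of the differences 4.61e-05, 9.98e-06 and 1.31e-06). The locus AT3G10930 had 6.37, 6.39 and 6.26 with mannitol and 3.92, 4.43 and 3.82 in controls, a change of 2.28, with 0.24, 0.41 and 0.19 at the other stages. Another of the 12, AT1G65490, lies next to AT1G65500 in gene order. In seedling, proliferating leaf and expanding leaf, AT1G65490 changed by 0.33, 2.27 and -0.38, and AT1G65500 by 4.91, 4.80 and 4.86. Those of the 12 without a symbol were named after their values were seen, apart from AT3G10930.

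**Figure D4:**
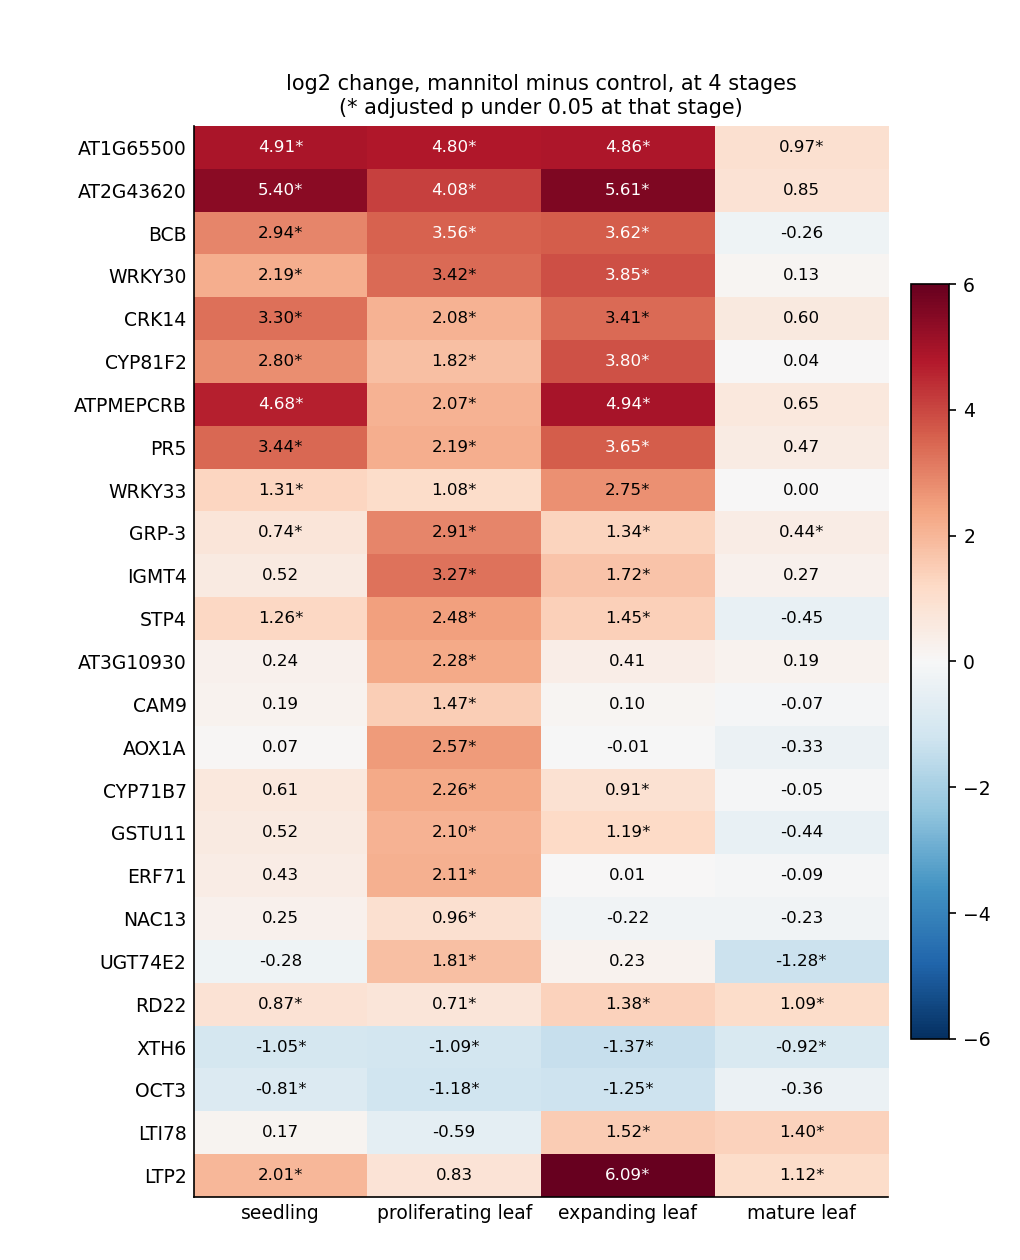
Log2 change, mannitol minus control, of 25 genes (vertical) at the 4 stages (horizontal); the colour follows the printed value, red for higher and blue for lower with mannitol, and an asterisk marks an adjusted p under 0.05 at that stage. AOX1A, CAM9, AT3G10930, ERF71 and NAC13 carry an asterisk in the proliferating leaf column alone, and AT1G65500 carries one in each column. Asterisks do not test differences between stages. ERF71 and NAC13 are not among the loci whose response differed from that at every other stage. The difference of NAC13 from seedlings was 0.71 (adjusted p = 0.49).

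Some genes with large changes in expanding leaf were not called in proliferating leaf. LTP2, a lipid transfer protein, averaged 13.09 ± 0.501 with mannitol and 12.27 ± 0.31 in controls (SD, n = 3 each), a change of 0.83 (adjusted p = 0.164, 0.0103 with the replicate block), while it changed by 6.09 in expanding leaf (adjusted p of the difference 4.61e-08). LTI78 changed by 1.52 in expanding leaf and 1.40 in mature leaf, and its change of -0.59 here differed from both (adjusted p = 0.011 and 0.00959). AT1G19960 changed by -0.04 here and by -3.28 in expanding leaf (adjusted p of the difference 8.95e-07). Of the 46 abscisic acid genes, 1 rose in seedlings, 2 in proliferating leaf, 12 in expanding leaf and 9 in mature leaf. The shares of all loci that rose were 1.17%, 1.57%, 4.02% and 2.99% in the same order. In expanding leaf 2 of these genes fell, and 0 fell at the other stages.

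Some loci were called in opposite directions in proliferating and mature leaf: 9 rose here and fell in mature leaf, among them UGT74E2 (1.81 here and -1.28 in mature leaf), the J-domain protein gene J11 (0.86 and -0.72) and the growth repressor RAV1 (0.67 and -1.24), and 4 fell here and rose there, among them AT4G30650 (-0.86 and 0.91). J11 and RAV1 were named after their values were seen, and the calls of both here depended on single arrays: J11 had an adjusted p of 0.0851 without mannitol replicate 3 and 0.091 without control replicate 1, and RAV1 had 0.279 without mannitol replicate 1, 0.142 without mannitol replicate 2, 0.0609, 0.0576 and 0.271 without control replicates 1, 2 and 3. UGT74E2 had 0.076 without mannitol replicate 1, and AT4G30650 0.334 without mannitol replicate 1, 0.092 without mannitol replicate 3, 0.216 without control replicate 2 and 0.132 without control replicate 3. At all 4 stages, 16 loci rose, among them AT1G65500, GRP-3, CHI, CYP79B2, UGT72E1 and RD22. UGT72E1 lost its call here without mannitol replicate 1 (adjusted p = 0.188) or any single control array (0.0565 to 0.0741). In mature leaf the adjusted p was 0.0464 for AT1G65500, 0.045 for GRP-3 and 0.0394 for CHI. It was 0.0224 for CYP79B2, 0.000424 for UGT72E1 and 4.77e-06 for RD22. RD22 changed by 0.87 in seedlings, 0.71 in proliferating leaf, 1.38 in expanding leaf and 1.09 in mature leaf, and CYP79B2 by 1.49, 1.61, 2.14 and 0.91 in the same order. Among the falls, XTH6 was called at each stage, with -1.05, -1.09, -1.37 and -0.92, and OCT3 at the first 3, with -0.81, -1.18, -1.25 and -0.36 (adjusted p in mature leaf 0.231).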

How the data were processed

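The deposited table holds log2 expression values, 1 per locus and array, which the authors made with RMA, per the submitters' processing notes; its version and how probes were grouped into loci: not given in the sources used here, nor is whether all arrays ran together. The log2 scale was read from the values, and no further normalization was applied. The RefSeq table (assembly TAIR10.1) named 20508 of 20777 loci; the other 269 keep their code.

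The 24 arrays were fitted as 8 group means in limma 3.58.1 (R 4.3.3; lmFit and eBayes, prior SD 0.137, prior degrees of freedom 6.02), so all groups share the estimate of spread. Tests were two-sided, adjusted by Benjamini and Hochberg over all 20777 loci within a contrast and called under 0.05. Interaction contrasts tested the response in proliferating leaf minus that at each other stage, and a moderated F test all 3 together. The code was tested on simulated data. Precision is limited by the number of arrays.

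Named loci are, among called loci without overlap between groups, those with the 24 highest and 12 lowest changes, up to 5 called members of each list by p (or the 2 smallest p where none was called), a panel of 14 stress and growth genes, and the 6 smallest p of each interaction contrast and of the F test. Other names are stated as such. Members, lists and the naming rule were chosen with earlier results of these data known. Gene lists get counts and medians and no set test.

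Deviations from the group means correlated at 0.273, 0.334 and 0.267 between mannitol and control arrays with the same replicate number. Between arrays with different numbers they correlated at -0.302 to -0.018. The numbers also stand for independent experiments, so same-numbered arrays can be read as pairs. The main fit held no replicate term, so its calls leave this pairing out. A replicate block within each stage was run as an alternative. The 13 alternatives were that block, a block across stages, a fit of the 6 arrays alone, centring on array medians, quantile normalization, leaving out loci below 4.1, a trended robust prior, and leaving out each of the 6 arrays.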

Additional observations from a re-analysis of the deposited data

Results flagged for a closer look

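For 14 called loci the response to mannitol differed from that at each of the other 3 stages, by the interaction test against each stage. The adjusted p of the moderated F test over the 3 differences is given with the log2 change in seedling, proliferating leaf, expanding leaf and mature leaf, in that order. No explanation was tested.

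In 2 of them the change in proliferating leaf lay between those at the other stages. ATPMEPCRB, the pectin methylesterase, changed by 4.68, 2.07, 4.94 and 0.65 (adjusted p = 6.24e-09). AT1G02360 changed by 2.79, 1.66, 2.88 and 0.21 (adjusted p = 4.57e-08).

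In the other 12 the change was largest in proliferating leaf. The wall protein gene GRP-3 changed by 0.74, 2.91, 1.34 and 0.44 (adjusted p = 4.15e-08) and the hexose symporter STP4 by 1.26, 2.48, 1.45 and -0.45 (3.34e-07). The calcium sensor CAM9 changed by 0.19, 1.47, 0.10 and -0.07 (1.12e-06), and the methyltransferase IGMT4 by 0.52, 3.27, 1.72 and 0.27 (1.53e-05). The cytochrome P450 CYP71B7 changed by 0.61, 2.26, 0.91 and -0.05 (8.36e-05), the alternative oxidase AOX1A by 0.07, 2.57, -0.01 and -0.33 (0.00024) and the factor MYB15 by 0.03, 1.13, 0.35 and -0.18 (0.000421). Of loci without a symbol, AT3G10930 changed by 0.24, 2.28, 0.41 and 0.19 (3.34e-07), AT2G29340 by 0.44, 1.62, 0.61 and 0.02 (1.53e-05) and AT1G65490 by 0.33, 2.27, -0.38 and -0.32 (4.58e-05). AT4G35110 changed by 0.37, 1.66, 0.44 and -0.13 (0.00103), and AT3G29970 by -0.13, 1.29, 0.07 and -0.02 (0.00931).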

How the results depend on the processing

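No named locus and no count reversed its direction in the alternatives run. With the replicate block within each stage, 668 loci were called (503 rises, 165 falls), 29 listed loci fell, and the difference from seedlings, expanding leaf and mature leaf was called for 108, 534 and 1014 loci, with 1492 for the F test (767 without the block). With the 6 arrays alone, 221 loci were called (205 rises, 16 falls), and 62 listed loci rose and 1 fell. Leaving out each array in turn gave 238 to 457 calls, 224 to 346 rises, 14 to 111 falls, 64 to 94 listed rises and 5 to 16 listed falls; differences were called for 31 to 53 loci against seedlings, 175 to 221 against expanding leaf, 359 to 543 against mature leaf and 629 to 732 by the F test. The difference of array medians ran from 0.029 to 0.041 and that of interquartile ranges from 0.049 to 0.068; these fits were added after seeing the data. Of 128 named calls 65 held in all alternatives and 63 were lost in at least 1: 50 with the 6 arrays alone, 44 without mannitol replicate 1, and 1 (GPX3, adjusted p = 0.0532) with the replicate block, which also called 14 named loci that were not called. With array medians centred, 285 loci rose and 74 fell; with quantile normalization, 301 and 51. The cause of these changes was not tested. Low values limit what can be read: 74 of the 327 rises had a control mean below 4.1.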
